A study of Homo sapiens with 26 samples.

Results

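Knockdown of TP63 in KYSE180 cells was examined in 4 of the 26 RNA-seq libraries of the study, 2 transfected with an siRNA against TP63 (siTP63) and 2 with a control siRNA (siCont). KYSE180 is an established human cell line of esophageal squamous cell carcinoma (ESCC) that expresses BRDT, and all 4 libraries were made from total RNA collected 48 h after transfection. The libraries were taken by their cell line, siRNA and experiment, and no measured value was used to choose them. The whole study covered 3 ESCC lines in which BRDT or TP63 had been changed, and the TP63 experiments in TE6 and KYSE150 (4 libraries each) are used below only to show where KYSE180 differed. As a model, the design rests on 1 line, 1 time point and a partial loss of the mRNA, which of the TP63 siRNAs was used for sequencing is not given in the sources used here, and nothing says whether replicates came from separate cultures, so that p-values measure only the spread between these libraries.

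TP63 encodes p63, a transcription factor of the p53 family that marks the basal layer of stratified squamous epithelia. Its N-terminally truncated form, ΔNp63, is the main form in squamous tissue and in squamous carcinomas, where it sustains basal keratins, adhesion genes and the proliferative state of basal cells. It also binds many enhancers of squamous genes and can act as a repressor, including at genes that p53 activates.

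The siRNAs listed by the study are shown because their sites decide which TP63 transcripts can be lost. In each sense strand the capitals mark bases 12 to 18, which pair with guide bases 2 to 8, the seed.
Non-targeting siRNA #5: ugguuuacaugUCGACUAa
TP63 #5: caucaugucugGACUAUUu
TP63 #8: cgacagucuugUACAAUUu
The control sequence matched 0 GENCODE transcripts over its whole length. TP63 #5 matched chr3:189890812-189890830 (hg38, plus strand), in the coding sequence of 5 of 12 coding TP63 transcripts. TP63 #8 matched chr3:189867849-189867867 on the same strand, in the coding sequence of 11 of 12, and neither sequence matched a transcript of another gene in full.

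In order to establish how far p63 had been depleted, TP63 (chromosome 3, 189631389 to 189897276) was examined first. Normalised TP63 values were 2573 and 3035 with siCont and 794 and 925 with siTP63 (log2 fold change -1.70, SE 0.14, adjusted p = 4.9e-10). Both siTP63 libraries lay below both siCont libraries, and 30.6% of the siCont mean was left. The comparison therefore contrasts a higher and a lower level of TP63, not its presence and absence. The squamous markers KRT5, KRT14, KRT6A, KRT17, SOX2 and DSG3 were present in every library, with the lowest value, 792, for DSG3 in siTP63 replicate 1. Of the marker lists of other cell types, 2 of 8 fibroblast, 2 of 9 leukocyte, 3 of 6 endothelial and 3 of 11 columnar epithelium genes had a mean value of 10 or more. The columnar genes included GATA6, a transcription factor of gut epithelium, at 148 and 149.9 with siCont and 446 and 467 with siTP63. CDX2, of the same list, went the other way, from 366 and 320 with siCont to 263 and 253 with siTP63. It was not called (log2 fold change -0.41, and 0.11 with libraries scaled to equal totals).

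The siCont libraries held 11003762 and 16134477 reads and the siTP63 libraries 15747813 and 14445131, and a count of 0 in a library allows up to 3 reads, or 0.186 to 0.273 RPM (reads per 1000000 reads of the library). This limit covers counting error only. Replicates correlated at 0.988 (siCont) and 0.993 (siTP63) and libraries of different groups at 0.923 to 0.942 (Pearson, log2 values across genes).

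Values differed between siTP63 and siCont for a large part of the genes tested, and the counts depended on the scaling, as given below. Expression fell for 3577 (25.7%) and rose for 3292 (23.6%) of 13924 genes. A gene was called when limma on log2(value + 1) gave a Benjamini-Hochberg adjusted p-value below 0.05 and the log2 fold change was 0.5 or larger in size. The values of the groups did not overlap for 11166 genes (80.2%). Among the called genes, 1640 fell and 1533 rose by more than 1 on the log2 scale, and 163 fell and 300 rose by more than 2.

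The fall with the smallest adjusted p among the named genes was that of DKK3, a secreted glycoprotein of the Dickkopf family (chromosome 11, 11956207 to 12009769). Its values were 2409.7 and 2662 with siCont and 100.5 and 90.6 with siTP63 (log2 fold change -4.72, SE 0.15, adjusted p = 5.78e-18), so that 3.77% of the siCont mean remained. FAM212A, also known as INKA1, an inhibitor of the kinase PAK4, went from 584 and 407 to 15.3 and 12.7 (log2 fold change -5.03, SE 0.23, adjusted p = 6.41e-15). The next falls were those of FST, which encodes the activin antagonist follistatin (log2 fold change -4.09), and S100A2, a calcium-binding protein of basal keratinocytes (-3.73). S100A2 was one of the most abundant transcripts of the control cells, at 54594 and 44618, and stood at 3932 and 3527 with siTP63. The synuclein SNCG (-3.58), the Notch ligand-like DLK2 (-3.40), the actin regulator CORO1A (-3.33), the neuropeptide precursor NTS (-3.32), the calmodulin-like CALML3 (-3.20) and the neurotrophin receptor NTRK2 (-3.08) completed the 10 largest falls by the rule for named genes.

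The largest rises included genes that were nearly silent in the control cells. APOD, the lipid carrier apolipoprotein D, had 0 and 6 reads with siCont and 358 and 274 with siTP63, and values of 0 and 6.16 and 275 and 218 (log2 fold change 6.52, SE 0.52, adjusted p = 1.99e-10). XAF1, an interferon-inducible antagonist of the apoptosis inhibitor XIAP (chromosome 17, 6755447 to 6775647), had 2 and 8 reads against 520 and 594, and values of 3.15 and 8.21 against 399 and 472 (log2 fold change 6.14, SE 0.30, adjusted p = 3.42e-14). Because siCont rested on so few reads, both fold changes depend on the added value of 1. Among the 10 largest rises, IFI27 (5.28), IFI44L (4.95), OAS2 (4.18), OAS1 (4.03), MX1 (3.57) and IFI6 (3.37) are interferon-response genes like XAF1. IGSF10 (3.67) and NAALADL2 (3.42) are not known for that response.

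**Figure D1:**
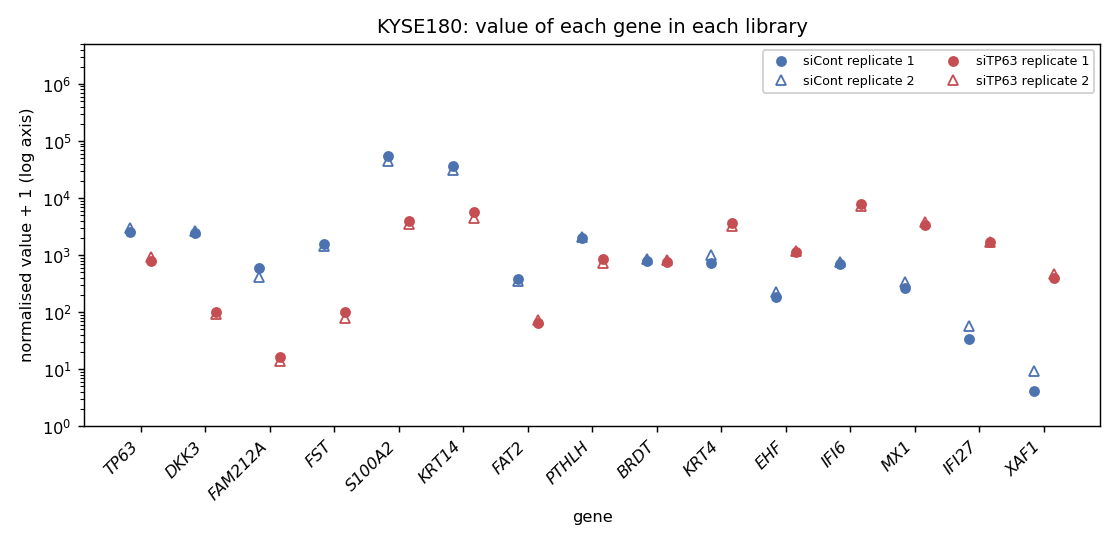
Normalised values plus 1 (log axis) of 15 genes in each of the 4 KYSE180 libraries, blue for siCont and red for siTP63, filled circles for replicate 1 and open triangles for replicate 2. The groups lie apart for every gene shown except BRDT, whose 4 values lie between 760 and 850.1.

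The genes that the study followed across cell lines were FAT2, KRT14, PTHLH and BRDT. FAT2, an atypical cadherin of squamous epithelium, went from 385 and 355 to 64.4 and 71.5 (log2 fold change -2.43, SE 0.18, adjusted p = 5.72e-11). KRT14, the type I keratin of basal cells, went from 36757 and 30744 to 5564 and 4454 (log2 fold change -2.76, SE 0.17, adjusted p = 2.63e-12). PTHLH, which encodes parathyroid hormone-related protein, went from 1963 and 2091 to 844 and 713 (log2 fold change -1.38, SE 0.14, adjusted p = 1.09e-08). These 3 genes fell in both siTP63 libraries. BRDT, a testis-specific BET protein that KYSE180 expresses, had values of 789.6 and 850.1 with siCont and 760.03 and 825 with siTP63 and was not called (log2 fold change -0.05, SE 0.14, adjusted p = 0.782), and both groups spanned about the same range.

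The size of the response depended on transcript length and on expression level, and treatment and these trends go together in these libraries, so that counts and medians of gene lists are given below with and without these trends where they differ. Median log2 fold changes in the 5 classes of longest-transcript length, from the shortest to the longest, were -0.54, -0.15, 0.03, 0.18 and 0.31. In the shortest class (59 to 2102 bases) 49.1% of genes were called down and 10.7% up, and in the longest (6144 to 109224 bases) 11.2% down and 36.3% up. By mean level in 3 classes of equal size, the medians were 0.35, 0.10 and -0.38 from the lowest to the highest. Both trends held within each other: short genes of the highest level had a median of -0.84 (72.8% called down) and long genes of the lowest level one of 0.55 (44.8% called up). A trend of the same sign and smaller size lay between the siTP63 replicates, where replicate 2 minus replicate 1 went from -0.16 to 0.11 over the length classes. Between the siCont replicates it went from 0.00 to -0.02. The 100 highest genes of each library took 22.7% and 23.2% of its reads with siCont and 16.9% and 15.8% with siTP63, and the part of this in the trend was not tested.

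**Figure D2:**
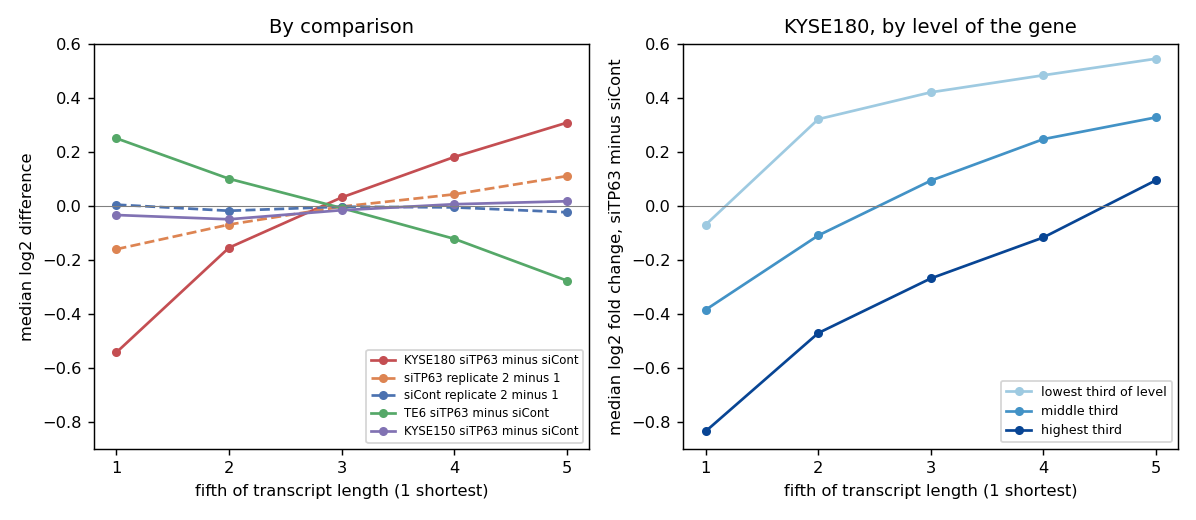
Median log2 difference in 5 classes of transcript length (1 is the shortest). The left panel shows siTP63 minus siCont in KYSE180, TE6 and KYSE150 and the differences between replicates in KYSE180 (dashed), where the KYSE180 line rises from -0.54 to 0.31 and the TE6 line falls from 0.25 to -0.28. The right panel splits the KYSE180 genes into 3 classes of mean level, and the line of each class rises with length.

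Once the trend of each library on length and GC content had been removed, 3398 (25%) of 13586 genes were below siCont and 2802 (20.6%) above it at the same thresholds. Of the genes called with the deposited values, 2796 stayed down and 2434 stayed up, and 0 changed sign and were called. Removing the trend on level as well left 2798 down (20.6%) and 2747 up (20.2%). Set against genes of like length and level, the log2 fold change of DKK3 lay -5.04 from the median of genes of its length and level and that of XAF1 lay 5.72 from its own. Outside the genes already named, the 2 largest rises and falls per class included ALPP (placental alkaline phosphatase, 2.98) and KRT80 (3.37) among rises, and PGF (placental growth factor, -2.72) and F12 (coagulation factor XII, -2.53) among falls.

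The direction of small changes also depended on the scaling. The deposited values summed to 17307900 and 16565100 with siCont and to 12077500 and 11475900 with siTP63, a fall of 30.5%. The 100 highest genes of the control cells made up 40.6% of this fall, and 91 of them were called down. Scaling the libraries to equal totals moved the median of all genes from 0.00 to 0.52 and gave 1460 genes down (10.5%) and 6728 up (48.3%), and scaling to equal upper quartiles moved it to 0.19 and gave 2631 down (18.9%) and 4524 up (32.5%). Under these scalings and with the length trend removed, 1385 genes stayed called down and 2434 stayed called up. These sums are read counts divided by size factors, so they follow how reads were spread over genes. Neither the total mRNA of a cell nor the cell number can be read from them, and changes below are relative to the medians given.

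p63 is the main regulator of the basal squamous program, so keratins and adhesion genes of squamous epithelium were examined next. List counts here and below are read against 23.6% called up and 25.7% called down over all genes tested. At equal totals these shares were 48.3% and 10.5%. The 8 basal and injury keratins tested (of 9 listed) were all called down, with a median log2 fold change of -1.06. The median was -0.91 without the length trend, -0.57 without the level trend as well and -0.54 at equal totals, and in each of the latter settings 4 of the 8 were still called down. KRT14 fell most. KRT6A and KRT17, keratins of activated keratinocytes, went from 15581 and 14202 to 6108 and 5999 (log2 fold change -1.30) and from 16116 and 14399 to 7603 and 6271 (-1.14), and neither was called without the level trend (-0.46 and -0.17). KRT16 followed at -0.98. KRT5, the partner of KRT14, fell less, from 67254 and 64637 to 36957 and 35825 (log2 fold change -0.86, SE 0.21, adjusted p = 9.22e-04), and was 0.20 once the trend on level was removed. Near-identical copies among KRT6A, KRT6B and KRT6C and among KRT14, KRT16 and KRT17 can exchange reads.

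The calls of genes that anchor basal cells depended on the scaling. Of 9 hemidesmosome and anchoring laminin genes, 3 were called up and 2 down, against 23.6% and 25.7% of all genes tested, but 4 up and 0 down at equal upper quartiles and 5 up and 0 down both at equal totals and without the length and level trends. The laminin chain LAMA3 rose (384 and 366 to 646 and 663, log2 fold change 0.80), whereas ITGB4, the hemidesmosomal integrin, fell slightly (-0.57, and -0.05 at equal totals). Of 10 desmosome genes, 1 was called up and 4 down, but 4 up and 1 down at equal upper quartiles and 6 up and 0 down at equal totals. DSG3, the basal desmoglein, went from 1625 and 1768 to 792 and 934 (log2 fold change -0.98, SE 0.14, adjusted p = 2.35e-06) and was not called at equal totals (-0.45).

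Genes on the suprabasal and simple-epithelial lists moved in both directions. Of 16 suprabasal and cornified envelope genes tested (of 30 listed), 4 were called up and 6 down, and 5 up and 3 down at equal totals. Over all genes tested 23.6% were called up and 25.7% down, and 48.3% and 10.5% at equal totals. KRT4 and KRT13 form a keratin pair of the esophageal suprabasal layers. KRT4 went from 720.4 and 1003 to 3647 and 3178 (SE 0.16, adjusted p = 1.13e-10) and KRT13 from 122498 and 98498 to 44088 and 37228 (log2 fold change -1.44, SE 0.23, adjusted p = 6.33e-06), although KRT13 was -0.24 and not called without the length and level trends. The plaque protein periplakin (PPL, 1.48) rose, and the protease inhibitor CSTA fell from 1259.9 and 1697 to 776 and 685, which was not called without both trends (-0.18). Of 8 genes on the list named simple epithelial, 4 were called up and 3 down. KRT80 (139.99 and 97.5 to 1209 and 1231), the mucin MUC1 (62.9 and 79.1 to 381 and 343) and KRT7 (1.27) rose. KRT8 fell (-0.93, and -0.11 without both trends). Without both trends 6 of the 8 were called up and 0 down. Whether each member, KRT80 included, marks simple epithelium was not tested.

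The transcription factors of the squamous lineage rose more often than they fell (10 up and 2 down of 19, median 0.51, and 0.76 without the length trend). The largest rise was of EHF, an epithelial ETS factor, from 181 and 225 to 1111 and 1182 (log2 fold change 2.50, SE 0.15, adjusted p = 1.76e-12). GRHL1, a grainyhead factor of epidermal differentiation (2.09), and TFAP2C, an AP-2 factor (1.59), also rose. SOX15 fell from 585 and 592 to 151 and 109 (log2 fold change -2.19, SE 0.17, adjusted p = 1.44e-10). SOX2, a lineage factor that is often amplified with TP63, had values of 2949 and 2555 with siCont and 3405 and 3612 with siTP63 and was not called (log2 fold change 0.35, SE 0.14, adjusted p = 0.0371), although it was called at equal upper quartiles and at equal totals (0.88).

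A list of 26 genes linked to p63 in squamous cells held 25 tested genes, of which 12 were called down and 8 up, against 25.7% and 23.6% of all genes tested. Its median of -0.46 turned to 0.07 at equal totals, where 11 were called up and 8 down, and to 0.09 with the level trend removed. The falls included S100A2, KRT14, FAT2, PTHLH and the Notch ligand JAG2 (5386 and 4247 to 2140.5 and 1936, log2 fold change -1.23). The rises included SERPINB5, the clade B serpin maspin (873 and 808 to 1690.3 and 2008, 1.13), and IGFBP3, a binding protein of insulin-like growth factors known to be held down by ΔNp63 (47.2 and 50.3 to 328 and 329.7, 2.73).

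Since p63 can bind sites of p53, the family member TP73 and 23 p53 targets were examined as well. TP73 went from 458 and 445 to 136 and 122 (log2 fold change -1.80, SE 0.16, adjusted p = 1.61e-09) and was looked up after the values were seen. Of the targets, 9 were called down and 2 up, but 5 down and 11 up at equal totals, where the median turned from -0.08 to 0.44. FDXR (ferredoxin reductase) went from 5703 and 4040.03 to 1361 and 1079 (-1.98), the nuclease AEN from 624 and 415 to 169 and 174 (-1.56), BAX, which permeabilises mitochondria, from 4338 and 3590.3 to 1549.97 and 1266 (-1.49), and the DNA damage sensor DDB2 from 2029 and 1945 to 869 and 882 (-1.18). These 4 falls kept their call without the length and level trends and at equal totals.

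**Figure D3:**
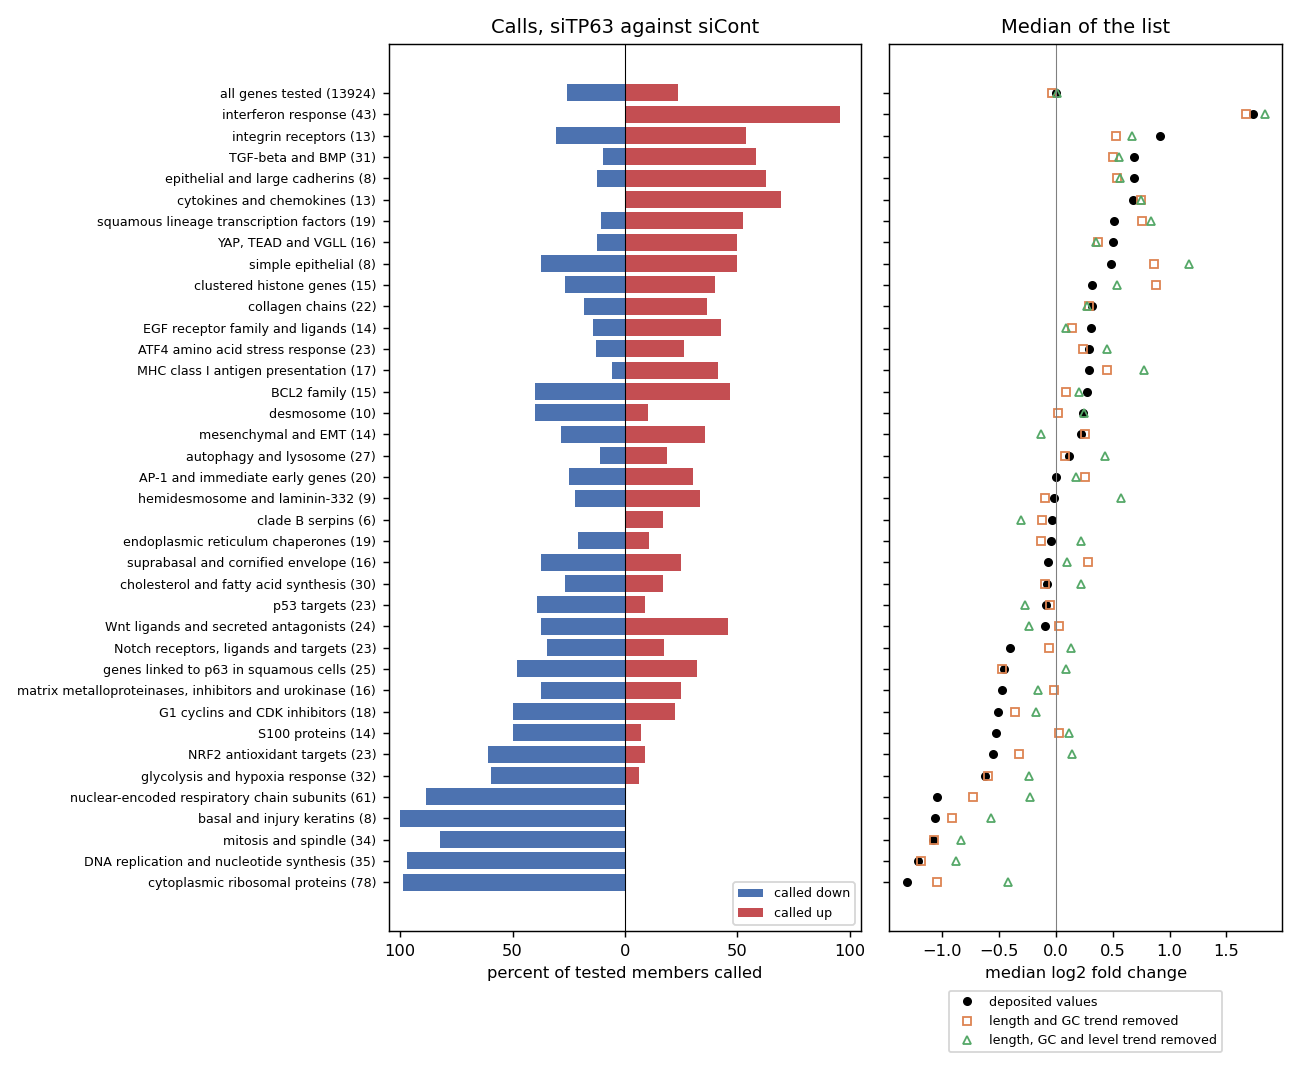
Gene lists in KYSE180, siTP63 against siCont. Bars give the percent of tested members called down (left) or up (right), with the number tested in parentheses, and symbols give the median log2 fold change with the deposited values (circles), without the length and GC trend (squares) and without the level trend as well (triangles). The top row holds all genes tested. The interferon list lies directly below it, at 1.73, 1.67 and 1.83 in the 3 versions, and ribosomal proteins at the bottom move from -1.31 to -0.42.

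Secreted signals and their antagonists were among the largest changes. Of 24 Wnt ligands and secreted antagonists tested (of 31 listed), 11 were called up and 9 down, against 23.6% and 25.7% of all genes tested. Their median of -0.09 was 0.43 at equal totals. Besides DKK3, the ligands WNT11 (217 and 181 to 33.0 and 38.1, log2 fold change -2.45) and WNT7B (-0.81, and -0.29 at equal totals) and the antagonist SOST (154 and 184 to 50.6 and 58.0, -1.62) fell. WNT5A, a ligand of the β-catenin-independent branch, rose from 431 and 384 to 1249 and 1426 (log2 fold change 1.71, SE 0.15, adjusted p = 4.91e-10).

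In the Notch pathway, in which membrane-bound ligands activate receptors of neighbouring cells, 4 genes were called up and 8 down of 23, against 23.6% and 25.7% of all genes tested. The median of -0.40 turned to 0.13 at equal totals, where 9 were called up and 5 down. The ligand JAG2 and the ligand-like DLK2 (2141 and 2028 to 213 and 182) fell, as did NRARP, a feedback inhibitor and target of the pathway (1434 and 1396 to 577 and 465, log2 fold change -1.45). The receptor NOTCH3 rose from 779 and 582 to 1707 and 1934 (log2 fold change 1.43, SE 0.15, adjusted p = 1.81e-08). Where genes overlap, reads of DLK2 cannot be told from those of ABCC10, those of DKK3 from USP47, nor those of SNCG from MMRN2.

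Of 14 EGF receptor family members and ligands, 6 were called up and 2 down, against 23.6% and 25.7% of all genes tested. These counts were 4 up and 4 down without the length trend and 3 up and 4 down without the level trend as well. The falls were both of ligands, NRG1 (neuregulin, 1736 and 1862 to 256 and 250.2, log2 fold change -2.82, SE 0.14, adjusted p = 4.33e-14) and AREG (amphiregulin, 349 and 381 to 102 and 125, log2 fold change -1.68). ERBB2, the co-receptor, rose from 1922 and 1711 to 3101 and 2923 (0.73). EGFR had values of 1466 and 1295 with siCont and 892 and 1094 with siTP63 and was not called (-0.48, and 0.04 at equal totals), but it was called down without the length trend (-0.77).

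TGF-beta and BMP signalling genes rose more often than they fell (18 up and 3 down of 31, median 0.69, and 0.51 without the length trend). The antagonist FST went from 1530.4 and 1433 to 97.4 and 76.3 (log2 fold change -4.09, SE 0.16, adjusted p = 4.43e-16). The receptor TGFBR2 rose from 699.9 and 837 to 3092 and 3637 (log2 fold change 2.13, SE 0.15, adjusted p = 1.24e-11). LTBP2, a latent TGF-beta binding protein family member (2.04), and the inhibitory SMAD6 (1.69) rose too.

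Matrix and adhesion genes, which the study linked to migration, also went both ways. Of 16 matrix metalloproteinases, inhibitors and urokinase genes, 4 were called up and 6 down, against 23.6% and 25.7% of all genes tested. At equal totals 6 were called up and 5 down. The secreted MMP1 (interstitial collagenase, 442 and 352 to 78.2 and 65.1, log2 fold change -2.45) and MMP10 (stromelysin-2, 544 and 809 to 110.4 and 109.6, -2.58) fell. The membrane-bound MMP14 (2254 and 2147 to 4921 and 4891, 1.16) and the inhibitor TIMP2 (311 and 382 to 1344 and 1352, 1.96) rose. Of 13 integrins, 7 were called up and 4 down (8 up and 1 down at equal totals), with rises of the β chains ITGB1 (1.25), ITGB6 (1.32) and ITGB8 (1.16). COL7A1, the anchoring fibril collagen, fell from 4031 and 3139 to 1081 and 922 (-1.83).

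Of 8 epithelial and large cadherins, 5 were called up and 1, FAT2, down, and E-cadherin (CDH1) rose from 2059 and 2121 to 4144 and 4765 (log2 fold change 1.09, SE 0.14, adjusted p = 5.04e-07). Among 14 mesenchymal genes, 5 were called up and 4 down, with a fall of the EMT factor SNAI2 from 204 and 251 to 54.5 and 70.7 (log2 fold change -1.85, SE 0.20, adjusted p = 3.43e-08) and a rise of FSTL1, a secreted follistatin-like protein (1.72). CTGF, a matricellular target of YAP, rose from 115 and 121 to 442 and 513 (adjusted p = 3.76e-10).

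The interferon response rose almost as a whole. Type I and type III interferons act on cell-surface receptors, the kinases JAK1 and TYK2 and the factors STAT2 and IRF9 to switch on antiviral effectors, and IRF9 complexes bind the interferon-stimulated response element (ISRE). Of 45 genes listed 43 were tested, and 41 were called up and 0 down, against 23.6% and 25.7% of all genes tested. IFI35 (1598 and 1497 with siCont and 1759 and 1632 with siTP63, log2 fold change 0.13) and BST2 (9376 and 9058 with siCont and 8439 and 7921 with siTP63, -0.17, and 0.02 at equal upper quartiles) were not called, and were named because they were the exceptions. All 43 genes tested had groups that did not overlap, IFI35 and BST2 included, against 80.2% of all genes. The median of 1.73 was 1.67 without the length trend, 1.83 without the level trend as well and 2.26 at equal totals. As this response was known from earlier results of these data, the count describes the list and is no independent support.

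The effectors covered a wide range of levels. IFI27, a mitochondrial protein, went from 33.0 and 55.4 to 1709 and 1696 (log2 fold change 5.28, SE 0.19, adjusted p = 6.91e-17). OAS1 and OAS2 make the 2-5A messenger that activates RNase L, and went from 59.8 and 116 to 1298 and 1466 (4.03) and from 23.6 and 62.6 to 615 and 832 (4.18). The antiviral GTPase MX1 went from 261 and 337 to 3312 and 3781 (log2 fold change 3.57, SE 0.15, adjusted p = 1.11e-15). IFI6, already abundant with siCont, went from 703 and 748 to 7721 and 7347 (log2 fold change 3.37, SE 0.14, adjusted p = 9.07e-16). IFI44L rose from 20.4 and 25.7 to 663 and 822, and the RNA-binding IFIT1 and IFIT2 rose by 2.90 and 2.54 on the log2 scale. LGALS3BP, a secreted glycoprotein and the most abundant of the called members, rose the least of those named here (0.67). MX1 overlaps TMPRSS2 and IFIT1 and IFIT2 overlap LIPA, and OAS1 and OAS2 an antisense RNA, so their reads may hold some of their neighbours.

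Upstream genes of the response were looked up after the list had been seen. The ligand genes IFNB1, IFNA1, IFNK, IFNL1, IFNL2, IFNL3 and IFNG had 0 or 1 read in every library, too few to compare. IFNE, an epithelial interferon, had 17 and 17 reads with siCont and 60 and 56 with siTP63 (log2 fold change 1.03, SE 0.32, adjusted p = 0.00733). IRF9 (2.88) was called up, and so were the kinase JAK1 (0.68, but 0.41 and not called without the length trend) and the double-stranded RNA sensor TLR3 (9.44 and 16.4 to 52.2 and 69.9, 2.19). JAK2 was called up as well, on few reads (15 and 15 with siCont, 61 and 78 with siTP63, 1.45). IFNAR2, a chain of the type I receptor (-0.60), and IRF3, a factor that induces interferon genes (-0.98), were called down. The other upstream genes looked up were not called. They were IFNAR1 (0.14), IFNLR1, IL10RB, IFNGR1, IFNGR2, TYK2 (-0.14), TBK1 (-0.02), MAVS, TMEM173 and MB21D1. Of these, IFNGR1 was called up without the length trend.

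Promoters of 5 interferon-list genes are shown because 19 of the 32 called genes with a promoter held the same short run of letters. BST2, which was not called, is shown because it held it as well. RefSeq promoters (GRCh38.p14, 250 bases before to 50 after the start) were found for 34 of the 43 genes and were searched on both strands for GAAA followed by any 2 bases and GAAA again, the core of an ISRE. The capitals mark matches, and TTTC at their start marks a match on the other strand.
IFI27 (chr14:94110593-94110672, plus strand): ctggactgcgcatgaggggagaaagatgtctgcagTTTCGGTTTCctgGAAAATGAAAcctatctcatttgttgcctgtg
IFI44L (chr1:78620249-78620328, plus strand): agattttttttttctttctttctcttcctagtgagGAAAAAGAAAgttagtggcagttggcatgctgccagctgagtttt
IFIT1 (chr10:89392472-89392551, plus strand): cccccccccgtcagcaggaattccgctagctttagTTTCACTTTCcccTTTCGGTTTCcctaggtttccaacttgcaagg
MX1 (chr21:41420534-41420607, plus strand): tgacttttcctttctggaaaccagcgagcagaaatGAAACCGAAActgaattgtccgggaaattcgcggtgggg
BST2 (chr19:17405716-17405795, minus strand): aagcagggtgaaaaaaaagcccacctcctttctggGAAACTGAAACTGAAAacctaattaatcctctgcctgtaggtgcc
These 19 were 59.4% of the called genes with a promoter, against 3.65% of all 27305 promoters and 2.56% of those of genes tested. The other 13 held none in this window. Of all 34 list genes with a promoter, called or not, 20 (58.8%) held it. The list was made of genes known for this response, so these shares describe the list and are no support for its rise with siTP63. Of 201 promoters of other genes that rose by 2 or more, 6 (2.99%) held it. A pair of CATG cores at the spacing of p53-family response elements (CATG, any 6 bases, CATG) was in 0.392% of all promoters and in 0.166% of those of genes tested. It was in 0 of 106 promoters of genes that fell by 2 or more. At shares this low, 106 promoters are too few to show a difference, and the count says nothing of enhancers outside the window.

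MHC class I antigen presentation, a further arm of this response, had 7 genes called up and 1 down of 17, with a median of 0.29. Over all genes tested, 23.6% were called up and 25.7% down. Without the length and level trends 14 of the 17 were called up and 1 down (median 0.78). At equal totals 13 were called up and 1 down (median 0.81), where 48.3% of all genes were called up. B2M, the light chain, went from 7579.9 and 10238 to 14158 and 14595 (log2 fold change 0.71, SE 0.17, adjusted p = 0.00102) and was under the limit without siCont replicate 1 (log2 fold change 0.49). The peptide transporter TAP1 (0.92) and the trimming enzyme ERAP1 (1.40) rose and the immunoproteasome subunit PSMB10 (-1.53) fell.

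The control libraries bear on the size of this rise, because KYSE180 was also transfected with siCont in the BRDT experiment, whose table was normalised separately. Summed over the 43 genes, the interferon list took 2126 and 2346 RPM with siCont of the TP63 experiment, 7037 and 7368 RPM with siTP63, and 4156, 4213 and 4133 RPM with siCont of the BRDT experiment. For 37 of the 43 genes both siCont libraries of the TP63 experiment lay below all 3 of the BRDT experiment, against 57.2% of all genes tested. The siTP63 libraries lay above all 3 of them for 36 of the 43, against 42.5%. MX1 was at 15.1 and 20.3 RPM with siCont and 274 and 329 RPM with siTP63, and at 139, 138 and 137 RPM with siCont of the BRDT experiment. IFI27 was at 1.91 and 3.35, 141 and 148, and 24.6, 24.4 and 20.4 RPM in the same order. The siTP63 libraries were thus above both sets of controls for both genes, by less against the second set. TP63 itself was at 149 and 183 RPM with siCont of the TP63 experiment and at 844, 889 and 942 RPM with that of the BRDT experiment, which is higher than in any library of the TP63 experiment. FAT2 followed this order, at 22.3 and 21.4 RPM against 223, 247 and 292 RPM, whereas KRT14 was higher with siCont of the TP63 experiment, at 2124 and 1856 RPM against 908, 880.5 and 769 RPM. Gaps between the control sets were not particular to these genes. The siCont libraries of the TP63 experiment lay below all 3 others for 57.2% of all genes tested and above them for 26.0%. FAT2 is long (14710 bases) and KRT14 short (1636 bases), and the part of transcript length in these gaps was not tested. Experiment and state of the control cells cannot be told apart.

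**Figure D4:**
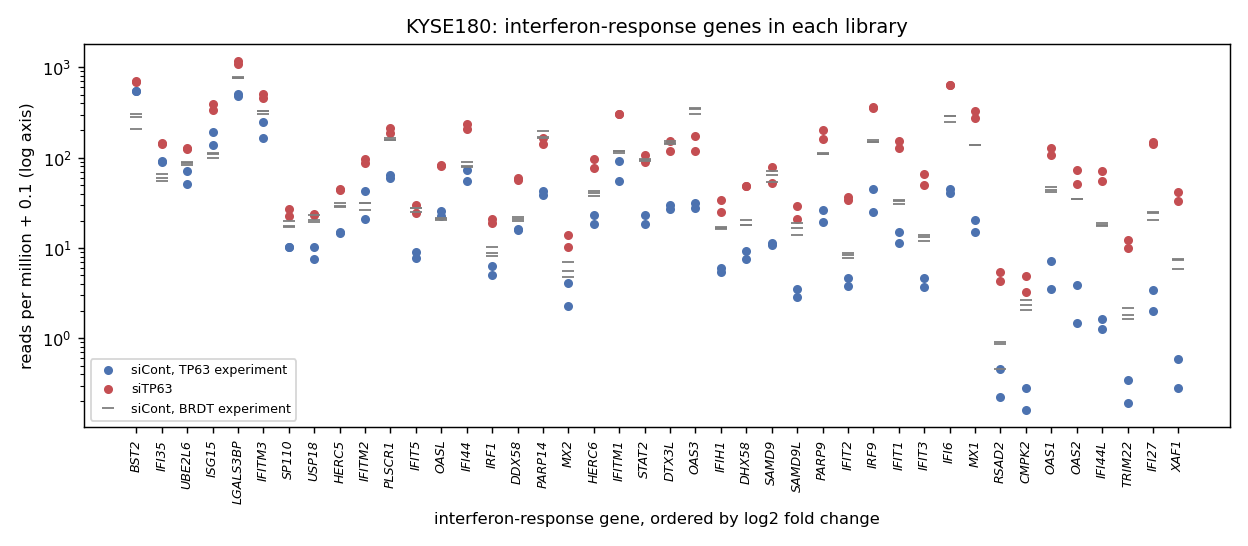
RPM plus 0.1 (log axis) of 42 of the 43 interferon-list genes tested, ordered by log2 fold change, in siCont (blue) and siTP63 (red) of the TP63 experiment and siCont of the BRDT experiment (grey bars), each mark 1 library. siTP63 lies above siCont of the same experiment for every gene shown, and for 30 genes the grey bars lie between them. This order holds for RPM. BST2, at 542 and 547 RPM with siCont and 699 and 690 RPM with siTP63, had a log2 fold change of -0.17 with the deposited values.

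Genes of DNA replication and mitosis fell. Of 35 DNA replication and nucleotide synthesis genes 34 were called down and 0 up (median -1.21), with GINS3 (-0.48) as the exception. The median was -0.88 without the length and level trends and -0.68 at equal totals. GINS2 and CDC45, parts of the replicative helicase, went from 7047 and 6489.7 to 1529 and 1233 (log2 fold change -2.30, SE 0.15, adjusted p = 3.8e-12) and from 1507 and 1266 to 403 and 378 (-1.82). MCM7, of the same helicase (-1.54), POLA2, a subunit of the primase complex (-1.83), and the thymidine kinase TK1 (-1.70) fell as well.

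Of 34 mitosis and spindle genes 28 were called down and 0 up (median -1.07, and -0.55 at equal totals). PTTG1, securin, went from 8802 and 8621 to 1823 and 1549 (log2 fold change -2.37, SE 0.15, adjusted p = 1.77e-12) and BIRC5, survivin, from 11209 and 9603 to 2232 and 2009.95 (-2.29). The kinase AURKB (-1.82) and the anaphase activator CDC20 (-1.79) fell with it. Among 18 G1 genes 9 were called down and 4 up, but 3 down and 8 up at equal totals. CCNE1 (-1.19), CDK2 (-1.23) and CDK4 (-1.29, but -0.47 and not called without both trends) fell, and the CDK inhibitor CDKN1C rose from 151 and 157 to 412 and 323 (SE 0.17, adjusted p = 1.09e-06).

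Abundant housekeeping transcripts fell in near-complete groups, and these are the groups that the trends on length and level touched most. Of 78 cytoplasmic ribosomal protein genes 77 were called down (median -1.31), but the median was -1.04 without the length trend and -0.42 without the level trend as well, where 35 were called down. RPS19 went from 87396 and 71896 to 29573 and 23135 (-1.60) and RPSA from 17005 and 12386 to 4737 and 3833 (-1.77). Of 61 nuclear-encoded respiratory chain subunits 54 were called down (median -1.04, and -0.23 without both trends, where 14 were called down and 3 up), for example NDUFS3 of complex I (-1.50) and UQCRQ of complex III (-1.47). Ribosomal protein pseudogenes share reads with these genes. Ribosomal proteins alone made up 22.0% of the fall of the summed values.

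Glycolysis and hypoxia genes fell more often than they rose (19 down and 2 up of 32, median -0.62), although the median was -0.10 at equal totals and 8 were called down and 1 up without both trends. Enolase (ENO1) went from 77919 and 76624 to 28736 and 25418 (-1.52), hexokinase 2 (HK2) from 827 and 829 to 277 and 317 (-1.48) and lactate dehydrogenase A (LDHA) from 10093 and 12968 to 5028 and 5223 (-1.16). Of 23 targets of the antioxidant factor NRF2, 14 were called down and 2 up, among them thioredoxin (TXN, -1.38, and -0.04 without both trends) and the aldo-keto reductase AKR1C1 (-1.21), whose near-identical relatives may share its reads. The median of this list, -0.55, turned to 0.15 without both trends, where 3 were called down and 6 up.

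In order to see where KYSE180 differed from another line, its fold changes were contrasted with those of TE6, an ESCC line that also expresses BRDT. TP63 went further down in TE6, to 4.57% of siCont (2596 and 2785 with siCont and 133 and 112 with siTP63), and the difference of log2 fold changes, KYSE180 minus TE6, was 2.74 (SE 0.17, adjusted p = 2.55e-08). Of 12711 genes, 3605 (28.4%) were lower and 3436 (27%) higher in KYSE180. KRT14 and FAT2 fell less in KYSE180, with differences of 2.50 (SE 0.17, adjusted p = 4.47e-08) and 2.87 (SE 0.22, adjusted p = 7.2e-08). DKK3 and S100A2 fell more, with differences of -1.23 (SE 0.15, adjusted p = 3.3e-06) and -2.05 (SE 0.17, adjusted p = 1.47e-07). PTHLH fell in both, by 1.38 and 1.47 on the log2 scale, and the difference of 0.09 (SE 0.16, adjusted p = 0.641) was not called. The depth of the knockdown and the cell line cannot be told apart in these differences.

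The genes that differed most from TE6 included FST, which fell by 4.09 in KYSE180 and by 0.72 in TE6, a difference of -3.37 (SE 0.20, adjusted p = 1.55e-08). SOST lay at the other end, since it fell by 5.80 in TE6 (541 and 463 with siCont and 10.6 and 5.92 with siTP63). PDP1, a mitochondrial phosphatase, MORC3, a nuclear body protein, and ZBTB38, a methyl-CpG binding factor, rose in KYSE180 (log2 fold change 0.80, 1.36 and 1.77) and fell in TE6 (-2.51, -1.61 and -1.24). The differentiation factor EHF had a log2 fold change of -0.02 in TE6, and the difference was 2.52 (SE 0.18, adjusted p = 5.6e-08).

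Of 39 interferon-list genes tested in both lines, 23 were higher and 7 lower in KYSE180, with medians of 1.72 in KYSE180 and 1.23 in TE6, where 30 of them were called up and 0 down. MX1 was not called in TE6, where its values were 42.2 and 26.7 with siCont and 40.5 and 53.3 with siTP63 and its difference was 3.12 (SE 0.28, adjusted p = 2.18e-07). IFI27 rose in both lines, and more in KYSE180 (difference 2.63, SE 0.24, adjusted p = 2.48e-07). Of 78 ribosomal protein genes 78 were lower in KYSE180 than in TE6, with medians of -1.31 and 0.42. The length trend of TE6 had the opposite sign (0.25 in the shortest class to -0.28 in the longest). With the length and GC trends of both lines removed, 68 of the 78 stayed lower. The trend on level, which moved this list most in KYSE180, was not removed in the contrast of lines. Of 35 DNA replication genes 24 were called down in TE6 (medians -1.21 in KYSE180 and -0.70 in TE6), and 17 were lower and 3 higher in KYSE180. Mitosis and spindle genes went the other way. All 34 were called down in TE6 (medians -1.07 in KYSE180 and -1.48 in TE6), and 6 were lower and 17 higher in KYSE180.

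**Figure D5:**
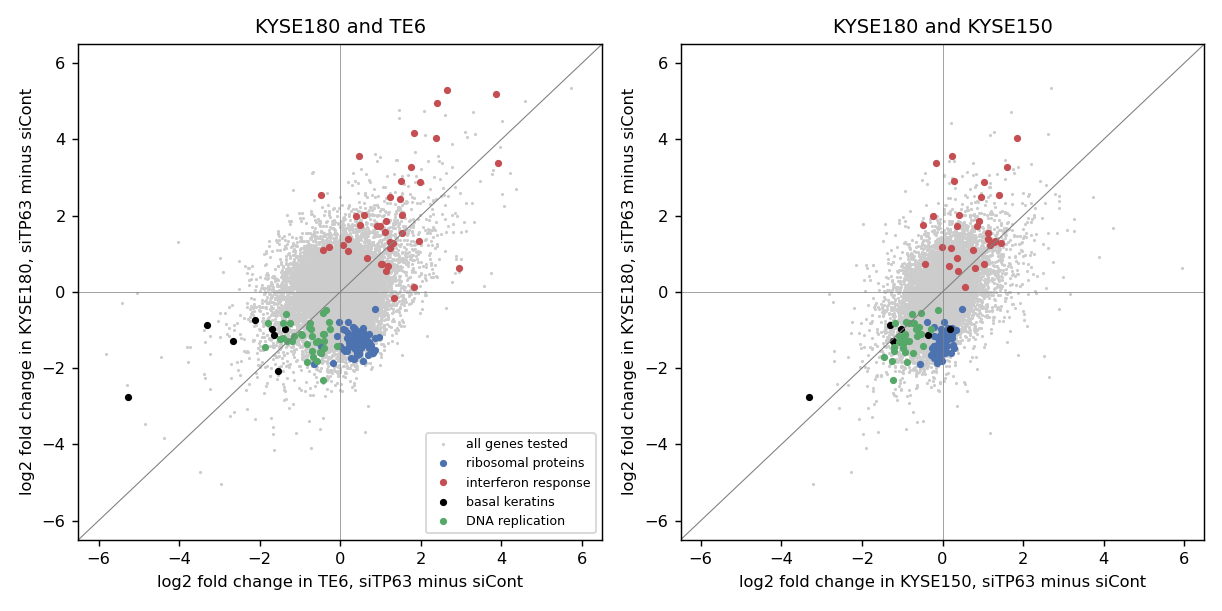
Log2 fold changes (siTP63 minus siCont) of each gene in KYSE180 (vertical) against TE6 (left) and KYSE150 (right), with the line of equal change. Ribosomal proteins (blue) lie below 0 in KYSE180 and mostly above 0 in TE6, and most interferon genes (red) lie above the line.

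KYSE150, an ESCC line that the study describes as lacking BRDT, kept 20% of TP63 (695 and 729 with siCont and 170.4 and 114 with siTP63), and its log2 fold change of -2.34 did not differ past the threshold from that of KYSE180 (difference 0.64, SE 0.30, adjusted p = 0.211). Of 11891 genes, 92 (0.774%) were lower and 101 (0.849%) higher in KYSE180, and leaving out any 1 of the 4 KYSE180 libraries left 0 in either direction, so that few genes can be called different with these libraries. DKK3 fell in KYSE150 as well (701 and 775 with siCont and 156 and 146 with siTP63), but by less, with a difference of -2.44 (SE 0.22, adjusted p = 0.0112). FAT2 was 1016 and 715 with siCont and 535 and 555 with siTP63 and differed by -1.79 (SE 0.28, adjusted p = 0.0310). KRT14 (244 and 146 with siCont and 19.1 and 17.3 with siTP63) had a difference of 0.55 (SE 0.35, adjusted p = 0.340), which was not called.

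Among the genes that differed most from KYSE150, DLK2 fell in KYSE180 and was 659 and 511 with siCont and 346 and 503 with siTP63 in KYSE150, a difference of -2.92 (SE 0.31, adjusted p = 0.0168). PHLDA1, a target of growth factor signalling, fell by 2.26 on the log2 scale in KYSE180 and was 1970.5 and 1590.2 with siCont and 1875 and 1826 with siTP63 in KYSE150, a difference of -2.32 (SE 0.24, adjusted p = 0.0168). MX1 stayed low in KYSE150, at 11.9 and 7.07 with siCont and a log2 fold change of 0.23, and differed by 3.35 (SE 0.39, adjusted p = 0.0168). Of 30 interferon-list genes tested in both lines, 7 were higher and 0 lower in KYSE180, with medians of 1.47 and 0.78. ALPP, at 6782 and 4776 with siCont and 6235 and 7315 with siTP63, was abundant in KYSE150 in both groups and differed by 2.73 (SE 0.32, adjusted p = 0.0168).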

How the data were processed

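mRNA-seq of KYSE180 cells treated with siCont or siTP63 (2 libraries each) was analysed. Per the submitters' processing notes the authors used STAR 2.6.0, HTSeq 0.11.2 and DESeq2 1.24.0 with hg38. The gene annotation and the strand setting of the counting are not given in the sources used here, and the library kit (TruSeq RNA V2) does not mark strand. The deposited values are a signal per gene, read counts that the authors divided by a size factor within each of 5 tables, so levels are not per length and tables are comparable only within themselves. All values were whole multiples of 1 read within a tolerance of 0.001, and these reads gave the depth of 11003762 to 16134477 per library.

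Values were tested as log2(value + 1) with limma 3.58.1 (R 4.3.3), with a trended variance, for genes with a mean value of 10 or more over the 4 libraries. The adjusted p-values were those of Benjamini and Hochberg, and calls needed one below 0.05 together with a log2 fold change of 0.5 or more in size. A fold change on this scale understates the change of low genes. Differences between lines were interaction terms fitted on the tables of both lines. Trends on transcript length and GC content (GENCODE release 44, splines with 4 degrees of freedom) and on level were removed per library as alternatives. Further alternatives were a pseudocount of 0.1, no filter, upper-quartile scaling, count tests of the recovered reads by edgeR (4.0.16) and DESeq2 (1.42.0), a replicate block, no fold-change limit and leaving out each library. Scaling to equal totals was added after seeing the data. Each test was run first on simulated data with known changes.

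Named genes were TP63, DKK3, XAF1, FAT2, KRT14, PTHLH and BRDT, the 10 largest changes in each direction among called genes with a mean value of 100 or more, without overlap and called without the length trend, the 2 largest per length class, up to 4 called members and the 2 highest members per list, and the 5 largest differences per line and direction. The experiment, the 42 gene lists and these rules were chosen with earlier results of these data known. GINS3, IFI35, IFNE, IFNAR2, IRF3, IRF9, JAK1, JAK2, TLR3, TP73 and the upstream interferon genes that were not called were chosen after their values were seen. Plots were made with matplotlib 3.10.9.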

Additional observations from a re-analysis of the deposited data

Results flagged for a closer look

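Each difference given here is the log2 fold change in KYSE180 minus that in the other line, and each was past the threshold of the interaction test (limma, adjusted p-value under 0.05 and a difference of at least 0.5). The lines also differed in how much TP63 was left and in their length trends, and the part of these in the differences was not tested.

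Against TE6, 3605 genes were lower and 3436 higher in KYSE180. Genes that fell in KYSE180 and not in TE6, or fell further in KYSE180, included FST (-3.37), SNCG (-3.09), CCDC85B (-2.93), the respiratory complex III assembly factor UQCC3 (-2.79), the nucleoside diphosphate kinase NME1 (-2.78), S100A2 (-2.05) and DKK3 (-1.23). UQCC3 went the other way in TE6, at 661 and 599 with siCont and 1087 and 1040.2 with siTP63. NME1 overlaps the annotated gene NME1-NME2, and the reads of NME1 and the near-identical NME2 may be split. Genes on the other side, which fell further in TE6 or rose more in KYSE180, included SOST (4.19), PDP1 (3.32), MX1 (3.12), IFIT2 (3.02), ZBTB38 (3.02), MORC3 (2.97), FAT2 (2.87), TP63 itself (2.74), IFI27 (2.63), EHF (2.52) and KRT14 (2.50). IFIT2, an interferon-response gene, was 280.4 and 301 with siCont and 173 and 250.1 with siTP63 in TE6 (log2 fold change -0.48).

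Against KYSE150, 92 genes were lower and 101 higher in KYSE180. The lower genes included the membrane protein CTXN1 (-2.99), DLK2 (-2.92), the secreted protease inhibitor SLPI (-2.59), DKK3 (-2.44), PHLDA1 (-2.32) and FAT2 (-1.79). SLPI was not called in KYSE180 (log2 fold change 0.40) and rose in KYSE150, at 168 and 131 with siCont and 869 and 1619.7 with siTP63. The higher genes included MX1 (3.35), FAM102B (3.21), the adhesion-linked LIM protein LMO7 (3.01), ALPP (2.73), the lysyl oxidase family member LOXL4 (2.66) and IFIT1 (2.61). LMO7 was 319 and 506 with siCont and 584 and 289 with siTP63 in KYSE150, where the groups overlapped.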

How the results depend on the processing

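Of 155 genes named in siTP63 against siCont, 150 kept their direction under every alternative run and 122 also kept their side of the thresholds. CDX2, JAK2 and the upstream interferon genes that were not called are not among the 155. Genes called in KYSE180 numbered 3115 to 3762 down and 2349 to 3639 up when 1 library was left out. On the recovered reads (100% of values were whole) edgeR called 3376 down and 3609 up, and DESeq2 3314 down and 2873 up. Scaling to equal totals gave 1460 down and 6728 up in KYSE180, and 1728 lower and 5876 higher against TE6, where leaving out 1 library gave 3188 to 3662 lower and 2918 to 3624 higher. Against KYSE150, genes lower in KYSE180 numbered 13 without a filter, 27 at equal totals and 589 without the length trend, and higher genes 23 without a filter and 398 without the length trend. Leaving out 1 library there gave 0 to 1819 lower and 0 to 1113 higher. The highest counts came without KYSE150 siTP63 replicate 1, and 0 came without any 1 of the KYSE180 libraries. Same-numbered replicates deviated from their group means with a correlation of 0.0466, so that the numbers are not shown to pair the samples. With a replicate block 0 genes were lower and 0 higher against KYSE150, and 3555 were called down and 3244 up in KYSE180.

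Among the 155 genes, directions that turned were those of BRDT (0.15 at upper quartiles, 0.47 at equal totals, 0.0083 without the level trend, -0.11 to 0.0094 with 1 library left out), BST2 (0.023 at upper quartiles, 0.35 at equal totals, 0.41 without the length trend with or without the block, 1.05 without the level trend), EGFR (0.044 at equal totals), GINS3 (0.039 at equal totals) and KRT5 (0.20 without the level trend). For PTHLH the difference from TE6 was -0.031 without KYSE180 siTP63 replicate 1 and up to 0.21 with 1 library left out, and that from KYSE150 was 0.11 at equal totals and 0.042 without the length trend. The cause was not tested. Calls lost without 1 library included those of IFNE (1.01 and 1.06 without siTP63 replicates 1 and 2), IFNAR2 (-0.49 without siTP63 replicate 1), ITGB4 and B2M (-0.49 and 0.49 without siCont replicate 1), HIST1H1C (0.41 and 0.38 without siCont replicate 2 and siTP63 replicate 1), YAP1, COL17A1 and CSF1 (0.46, 0.499 and 0.63 without siTP63 replicate 2) and CXCL1 (0.27 without siCont replicate 2), and EGFR was called without siCont replicate 2 or siTP63 replicate 2 (-0.57 and -0.63). The depth limits statements on genes of a few reads such as APOD with siCont and the interferon ligands.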

Other observations

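Genes of cell death and growth factor feedback, which the comparisons above do not cover, are read against the 25.7% of genes called down and 23.6% called up over all genes tested. Of 15 BCL2 family genes tested, 7 were called up and 6 down. BMF, a BH3-only protein that promotes apoptosis, went from 70.8 and 90.3 to 693 and 723 (log2 fold change 3.13, SE 0.17, adjusted p = 1.8e-13), and BIK, of the same kind, from 86.5 and 67.8 to 203 and 189 (log2 fold change 1.34). BAX and BAD (-1.49, which was not called without the level trend) fell. Of 20 AP-1 and immediate early genes, 6 were called up and 5 down, close to these shares. FOSL1, an AP-1 subunit, went from 267 and 229 to 54.5 and 58.0 (-2.12) and ETV4, an ETS factor downstream of ERK, from 903 and 758 to 265 and 239 (-1.71), whereas SPRY2, an inhibitor of the same pathway, went from 84.9 and 76.0 to 216 and 200.2 (1.36). Of 16 YAP, TEAD and VGLL genes, 8 were called up and 2 down, with rises of the YAP-binding AMOTL2 (516 and 487 to 1173 and 1305, 1.30), the kinase LATS2 (1.28), TEAD3 (1.02) and YAP1 (0.60, not called without the length trend).

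Stress and organelle genes gave mixed counts that depended on the scaling. At equal totals, 48.3% of all genes tested were called up and 10.5% down. Of 23 ATF4 targets, 6 were called up and 3 down, and 15 up and 1 down at equal totals. The glutathione-degrading CHAC1 (83.4 and 104 to 284 and 275, 1.58) and asparagine synthetase ASNS (0.72) rose. Of 19 endoplasmic reticulum genes, 2 were called up and 4 down, and 9 up and 2 down at equal totals. SDF2L1 (1798 and 1522 to 454 and 394, -1.96) and MANF (-1.23) fell and HERPUD1, of the degradation machinery, rose (1.18). Of 27 autophagy and lysosome genes, 5 were called up and 3 down, and 16 up and 1 down at equal totals. The lysosomal proteins TPP1 (313 and 496 to 1027 and 1178, 1.48) and LAMP2 (1.16) rose and the galactosidase GLA (-1.38) fell. Of 30 cholesterol and fatty acid synthesis genes, 5 were called up and 8 down, and 14 up and 2 down at equal totals. The mevalonate enzymes MVK (-1.03), MVD (-1.02, and -0.49 at equal totals) and the isomerase EBP (-1.12) fell, and the desaturase SC5D rose from 294 and 413 to 972 and 1076 (1.55).

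Of 13 cytokines and chemokines and their NF-κB-linked genes tested (of 27 listed), 9 were called up and 0 down, among them NFKBIA (1183 and 1241 to 1882 and 1739.8, 0.58), the adhesion molecule ICAM1 (0.76), CSF1 (0.68) and CXCL1 (0.51), with a median of 0.68. Of 14 S100 genes, 7 were called down and 1, S100A4 (0.76), up, but 4 down and 4 up without the length trend, where the median turned from -0.53 to 0.03. S100A6, with values of 14254 and 16221 with siCont and 22017 and 17974 with siTP63, was not called (0.39) but was called up at equal totals (0.91). Of 6 clade B serpins 1, SERPINB5, was called up and 0 down. Of 22 collagen chains, 8 were called up and 4 down, and 16 up and 1 down at equal totals, with rises of COL4A5 (1.37), COL5A1 (1.36) and COL17A1 (0.53, not called without the length trend). Of 15 clustered histone genes, 6 were called up and 4 down, with rises of HIST2H2BE (51.9 and 57.5 to 202 and 223, 1.94), HIST1H2BK (0.95) and HIST1H1C (0.52), whose copies may share reads. Mitochondrially encoded mRNAs (13 listed) were in none of the values used here. The leukocyte list had 1 gene called up and 1 down of 2 tested, the endothelial list 1 up and 2 down of 3, the fibroblast list 0 of 2 and the columnar list 1 up of 3.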
